A study of Mus musculus with 4 samples.

Results

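The regions described here are 5075 CTCF peaks that lie between genes, close to a gene, and appear in both of the peak lists made from embryonic mouse forebrain. They were chosen by peak position in both lists. A peak of the medial ganglionic eminence (MGE) list on chromosomes 1 to 19 was taken when it overlapped a telencephalon peak by 1 bp or more. Its midpoint also had to fall outside every gene of the RefSeq gene table, more than 1 kb and at most 100 kb from the nearest gene end. The rule kept 5075 of 24888 MGE peaks on these chromosomes, and the MGE list held 25710 peaks in all.

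The series profiled CTCF binding at embryonic day 13.5 in the telencephalon and in the MGE, the ventral bulge of the telencephalon that produces many cortical interneurons. It had 4 samples, a CTCF ChIP-seq library and an input library without antibody for each of the 2 tissues. Strain, genotype, sex and the number of embryos pooled are not stated in the sources used here, and the dissection text names the MGE for all samples. The tissue labels could not be checked, since peak lists hold no expression values. Both samples are mixtures of cells, so a site bound in fewer cells and one bound less in every cell cannot be told apart.

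CTCF binds DNA through its zinc fingers and halts cohesin, the ring complex that extrudes chromatin loops. Bound sites mark many loop anchors and domain borders, and sites between genes can keep an enhancer of one gene from acting on its neighbour. Many CTCF sites are known to be used in most cell types, whereas a smaller group varies between tissues.

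Each tissue had 1 CTCF library, so no difference between the lists was tested. Telencephalon libraries were made with another library kit than MGE libraries, and tissue and kit cannot be told apart. Read depth is unknown, because the lists give only the chromosome, start and end of each peak. Peak width was the one property of a peak that could be measured. All intervals are exact 95% Clopper-Pearson or Poisson intervals and cover counting error only. No genome sequence was used here, so positions are given in place of sequences. Coordinates are 1-based mm10 positions.

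Among the 9206 MGE peaks that lay between genes and 1 to 100 kb from a gene, 55.1% were shared (interval 54.1 to 56.1%). These shared peaks are the 5075 that the rule kept, so the share rests on the same overlap as the rule. Over all MGE peaks on chromosomes 1 to 19 the share was 59.2%, and in the telencephalon list 47.4% of peaks had an MGE partner. Peaks within 1 kb of a gene end were shared in 82.7% of cases (81.4 to 84.0%), and peaks inside genes in 60.8% (59.9 to 61.7%). Among the 1164 MGE peaks farther than 100 kb from any gene, 9.02% were shared (7.44 to 10.8%). The intergenic peaks near genes made up 34.4% of all shared MGE peaks. Telencephalon peaks varied less with location: 48.4% of those 1 to 100 kb from a gene were shared, 51.0% of those at gene ends and 25.5% of the 411 that lay over 100 kb away.

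The position of a shared peak in one list relative to its partner in the other is given as a description, since the rule required the overlap and so limited how far apart the midpoints could lie. In 5002 cases (98.6%) 1 MGE peak matched 1 telencephalon peak, while 30 MGE peaks overlapped 2 or more telencephalon peaks. In these 5002 pairs the midpoints lay a median of 46 bp apart (interquartile range 21 to 79 bp). The offset was at most 25 bp in 29.8% of pairs, at most 100 bp in 84.1% and at most 200 bp in 98.2%. The median signed offset was 2 bp (telencephalon minus MGE). A median of 85.7% of the MGE peak and 84.1% of the telencephalon peak lay in the overlap. In 1243 pairs the telencephalon peak fell inside the MGE peak, in 1156 pairs the reverse held, and 2603 pairs were staggered.

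Shared intergenic peaks had a larger median width than unshared ones of the same location. Their median width was 342 bp in the MGE list (interquartile range 285 to 408 bp), against 244 bp (244 to 292 bp) for the 4131 MGE peaks of the same location without a partner. In the telencephalon list, shared peaks of this location had a median of 342 bp (276 to 459 bp), and the 5417 unshared peaks had 224 bp (175 to 283 bp). Since 244 bp was the narrowest width of the MGE list, 57.3% of unshared and 9.85% of shared intergenic peaks sat at that floor. Shared peaks at gene ends had a median of 364 bp in the MGE list and those inside genes 343 bp.

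The width of a site in one list said little about its width in the other. Across the 5002 pairs the log2 widths had Pearson's r = 0.31 and Spearman's rho = 0.30, a description across peaks, which are not independent replicates and share a width floor in each list. The telencephalon peak was the wider one in 2578 pairs, the MGE peak in 2401, and 23 pairs had equal widths. The median ratio of telencephalon to MGE width was 1.01, with an interquartile range of 0.80 to 1.31. MGE peaks of 244 bp had partners with a median of 280 bp, those of 301 to 400 bp had 346.5 bp, and those over 400 bp had 401 bp. The density plot of paired widths shows this broad cloud around the line of equality.

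**Figure D1:**
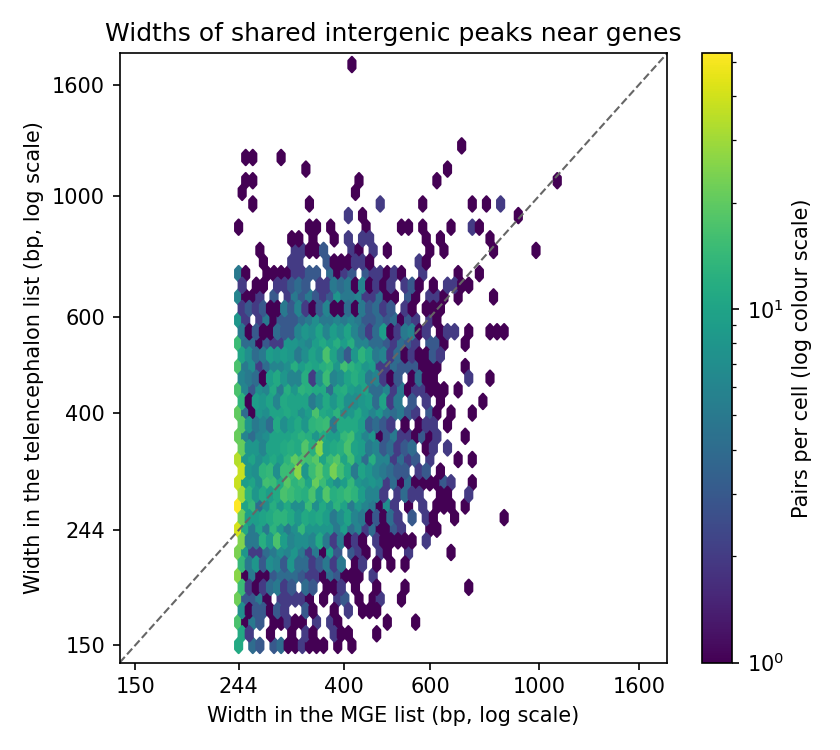
Width of each shared intergenic peak in the MGE list (x axis, bp, log scale) and in the telencephalon list (y axis, bp, log scale) for 5002 pairs, with colour for the number of pairs per cell and a dashed line of equal width. The pairs pile up at 244 bp, the narrowest MGE width, and spread to both sides of the line.

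Shared peaks were crowded towards genes. The median distance to the nearest gene end was 7989 bp (interquartile range 3552 to 17347 bp), and 2930 of 5075 (57.7%) lay within 10 kb. Long distances offer more sequence, so counts were divided by the intergenic sequence available at each distance in gaps bounded by genes on both sides. Shared peaks then numbered 11.2 per Mb at 1 to 2 kb from a gene (interval 10.3 to 12.2), 9.17 at 2 to 5 kb and 7.26 at 5 to 10 kb. The density was 5.46 per Mb at 10 to 20 kb, 2.92 at 20 to 50 kb and 1.45 at 50 to 100 kb (1.28 to 1.63). The nearest class was thus 7.76 times as dense as the farthest. The intervals of neighbouring classes did not overlap, but they treat peaks as independent. As 22.9% of shared peaks had another within 10 kb, the intervals are too narrow, and the course over distance is a description.

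The unshared peaks of the lists followed different courses over the same sequence. MGE peaks without a partner numbered 3.68 per Mb at 1 to 2 kb (3.18 to 4.23) and 4.79 per Mb at 50 to 100 kb (4.48 to 5.12), a ratio of 0.77. Telencephalon peaks without a partner numbered 9.70 per Mb at 1 to 2 kb (8.88 to 10.6) and 2.31 per Mb at 50 to 100 kb (422 peaks), a ratio of 4.19. Beyond 20 kb from a gene, MGE peaks without a partner outnumbered the shared peaks, with 4.42 against 2.92 per Mb at 20 to 50 kb. The gene table holds many non-coding and predicted genes. With protein-coding genes alone the shared density at 20 to 50 kb was 6.31 per Mb, at 50 to 100 kb 3.83 and at 1 to 2 kb 15.6, so the density was lower farther from genes there too.

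**Figure D2:**
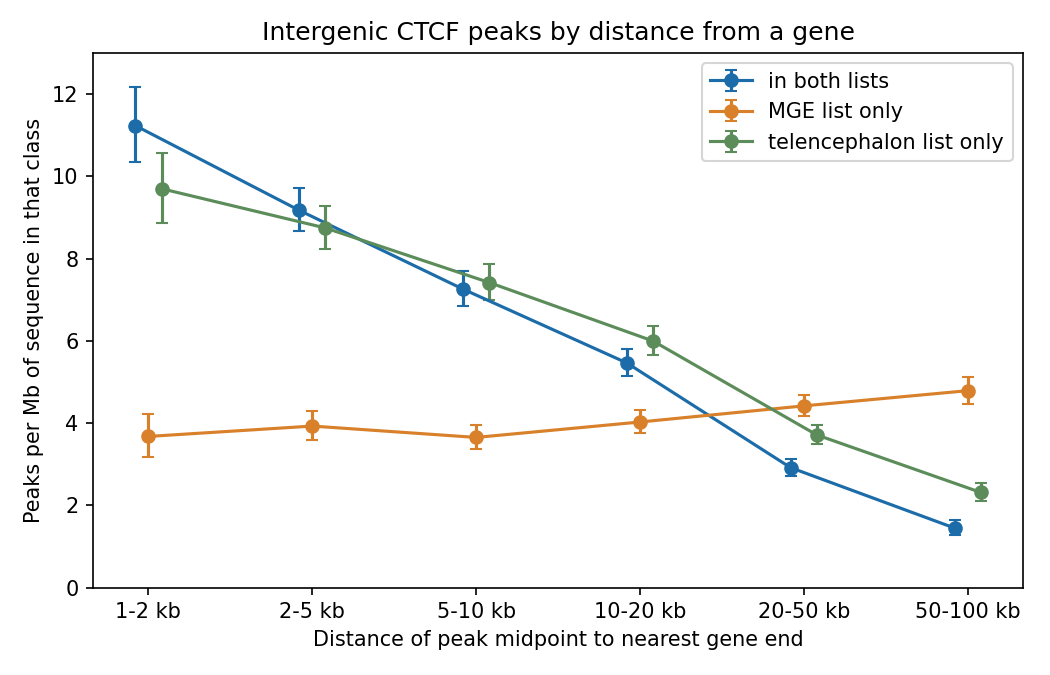
Peaks per Mb of intergenic sequence (y axis) by distance of the peak midpoint to the nearest gene end (x axis) for peaks in both lists, in the MGE list only and in the telencephalon list only, with bars for exact 95% Poisson intervals. Peaks in both lists run from 11.2 per Mb in the nearest class to 1.45 in the farthest, and those in the MGE list only run between 3.65 and 4.79 per Mb.

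The share of MGE intergenic peaks with a telencephalon partner was lower at longer distances. It was 75.4% at 1 to 2 kb (594 of 788), 66.6% at 5 to 10 kb (1138 of 1709), 40.4% at 20 to 50 kb (809 of 2004) and 23.2% at 50 to 100 kb (264 of 1137). Within each class of MGE peak width the share was also lower at 50 to 100 kb than at 1 to 2 kb. Peaks over 400 bp wide were shared in 170 of 179 cases at 1 to 2 kb (interval 90.7 to 97.7%) and in 67.4% at 50 to 100 kb (56.8 to 76.8%). Peaks of 301 to 400 bp went from 87.8% to 37.9%, and those of 244 bp from 34.1% (27.1 to 41.7%) to 5.11% (3.42 to 7.30%). The median MGE width of the shared peaks was 351 bp at 1 to 2 kb and 334.5 bp at 50 to 100 kb. In the telencephalon list the shared part was 53.4% (50.4 to 56.4%) at the shortest and 38.5% (34.8 to 42.2%) at the longest of these distances.

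**Figure D3:**
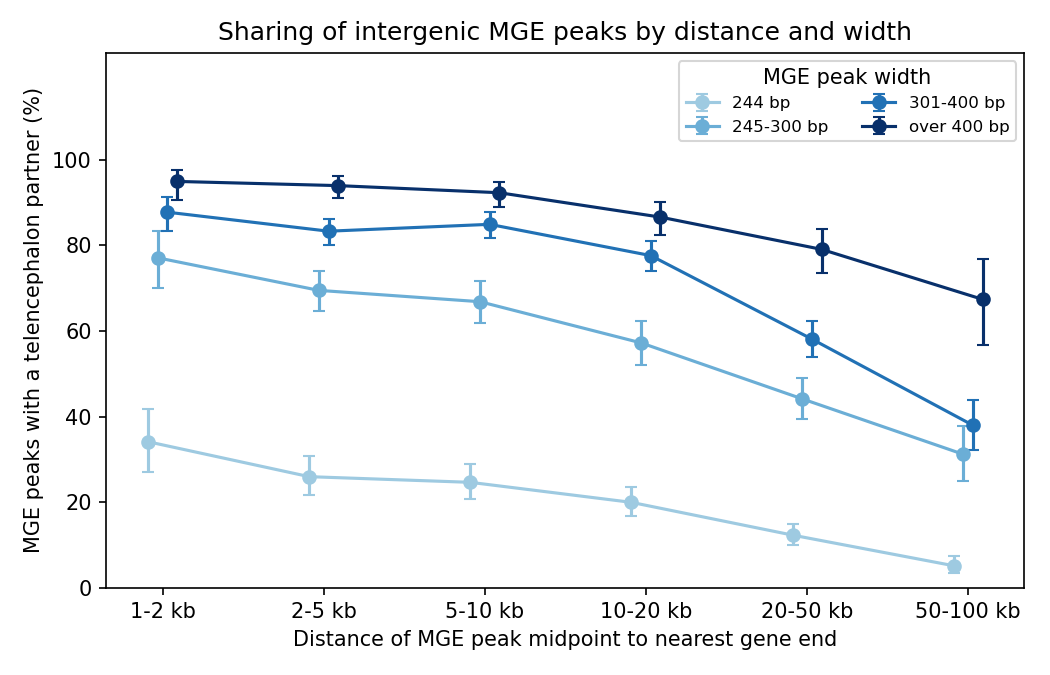
Percentage of intergenic MGE peaks with a telencephalon partner (y axis) by distance of the midpoint to the nearest gene end (x axis), with a line for each class of MGE peak width and bars for exact 95% Clopper-Pearson intervals. All 4 lines are lower at 50 to 100 kb than at 1 to 2 kb, and wider peaks lie above narrower ones at each distance.

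Peaks that missed a partner rarely did so by a small margin. Only 84 of the 4131 unshared MGE peaks of this location (2.03%) had a telencephalon peak within 1000 bp, and 32 within 250 bp. The median gap to the nearest telencephalon peak was 71.6 kb. For the 5417 unshared telencephalon peaks of this location the median gap to an MGE peak was 23.1 kb, and 334 (6.17%) had one within 1000 bp.

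Most gaps between neighbouring genes held no shared peak. Of 27898 gaps long enough to hold one, 3983 (14.3%, interval 13.9 to 14.7%) had at least 1. Among these, 3158 had exactly 1 shared peak, 650 had 2 and 175 had 3 or more. The share was 2.65% for gaps of 2 to 5 kb, 27.2% for gaps of 100 to 200 kb (25.1 to 29.4%), and 19.4% for gaps over 200 kb (17.2 to 21.8%). Per Mb of sequence shorter gaps held more, with 18.9 shared peaks in gaps of 2 to 5 kb, 8.30 in gaps of 20 to 50 kb and 1.28 in gaps over 200 kb. In 2264 of the 3983 gaps (56.8%) the shared peaks were the only intergenic peaks of either list between 1 and 100 kb from a gene. An MGE peak without a partner accompanied them in 591 gaps and an unmatched telencephalon peak in 1367. Counting only protein-coding genes, 25.9% of the then fewer and longer gaps held a shared peak.

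**Figure D4:**
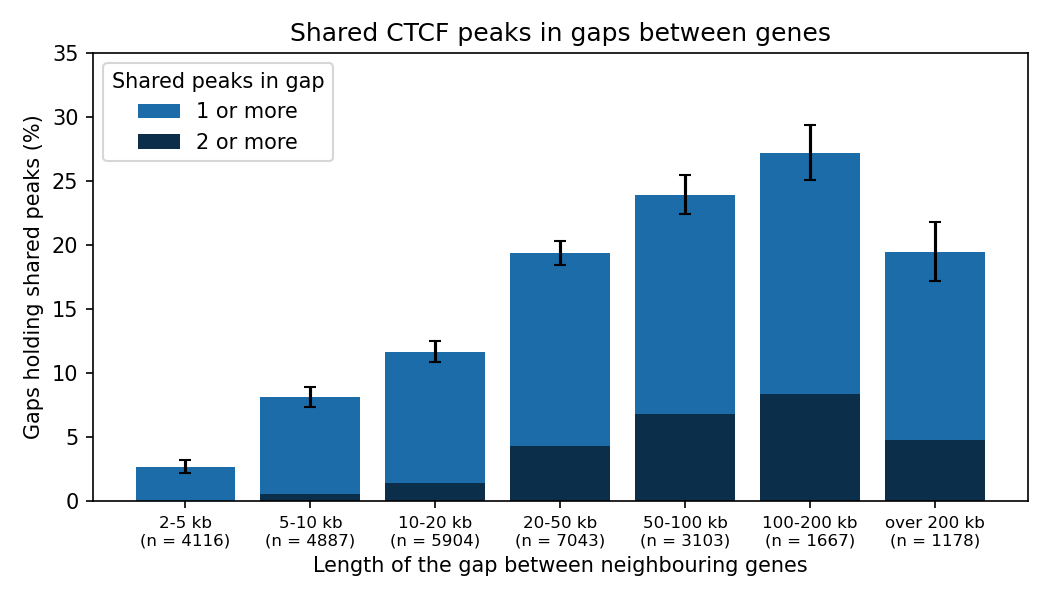
Percentage of gaps between neighbouring genes that hold 1 or more (light) and 2 or more (dark) shared peaks (y axis) by gap length (x axis, with the number of gaps), with bars for exact 95% Clopper-Pearson intervals of the first. The share is highest, at 27.2%, in gaps of 100 to 200 kb.

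The fullest gaps held 5 or 6 shared peaks. The first of these lay beyond Igha, the constant region gene of immunoglobulin A, at the end of the immunoglobulin heavy chain locus (gap chr12:113214253-113256203). The flank beyond Igha is known for a regulatory region that is followed by a run of CTCF sites. Its 6 shared peaks stood within 6.68 kb, 33839 to 40089 bp from Igha. In the MGE list they measured 384, 247, 339, 296, 328 and 478 bp from the far end towards the gene. The first lay at chr12:113215924-113216307 and the last at chr12:113222127-113222604, matched in the telencephalon at chr12:113215678-113216332 and chr12:113222056-113222606. The MGE peaks of 247 and 339 bp shared 1 telencephalon peak of 903 bp, chr12:113217310-113218212. No MGE peak without a partner lay in this gap, and 2 telencephalon peaks did.

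The other gap with 6 shared peaks lay between the predicted genes Gm33738 and Gm38612 (chr5:128449805-128570647), where the peaks stretched over 72.1 kb and were 244 to 368 bp wide. Of the 6 gaps with 5 shared peaks, the one between Smug1, a DNA repair glycosylase gene, and Cbx5, which encodes the heterochromatin protein HP1 alpha, was the shortest at 22.6 kb (chr15:103168940-103191545). Its peaks ran over 11.0 kb and were 283 to 443 bp wide, with telencephalon partners of 349 to 541 bp. Next to Mki67, the gene of the proliferation marker Ki-67, 5 shared peaks stood between 19352 and 76625 bp from the gene, with none unmatched in either list (chr7:135716451-135816460). The first of these, chr7:135735609-135735995 and chr7:135736368-135736637, both overlapped a telencephalon peak of 1213 bp. Gaps beside Dmrta2 and beside Syf2, a splicing factor gene, also held 5, spread over 109 and 88.8 kb. The gap from Gm34672 to Gm34721 (chr13:59255589-59406010) and the one from Gm41352 to Gm3787 (chr15:77323562-77369492) completed the group. A peak of 676 bp in the latter, chr15:77343376-77344051, was the widest MGE peak in these 8 gaps. The number of named gaps was raised to include ties.

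Some shared peaks stood close together, but most had no other within 10 kb. A second shared intergenic peak lay within 10 kb of 1163 of the 5075 (22.9%, interval 21.8 to 24.1%), within 5 kb of 15.8% and within 20 kb of 32.0%. The median distance to the nearest other one was 62.4 kb. Unshared MGE peaks of this location had another of their kind within 10 kb in 8.16% of cases (7.34 to 9.03%) and unshared telencephalon peaks in 19.1% (18.0 to 20.1%). When a shared peak of any location counted as neighbour, the value for the intergenic peaks near genes was 30.0% and that for all shared MGE peaks was 29.5%.

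The closest pairs were MGE peaks that overlapped a single telencephalon peak. Beside the non-coding gene 4930548G05Rik the midpoints lay 439 bp apart (chr5:127234912-127235175 and chr5:127235281-127235684), both overlapping a telencephalon peak of 791 bp. Near Tma16 the midpoints lay 474 bp apart, and the second peak of that pair, 244 bp wide, overlapped its 584 bp telencephalon partner by 19 bp. Of the shared intergenic peaks with only 1 partner, 43 had a partner that also overlapped another MGE peak.

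The densest run stood outside all gaps, before the first gene of chromosome 9. There 35 shared peaks lay in 37.3 kb ahead of the microRNA gene Mir101c (chr9:3000140-3037456) and covered 48.1% of it. Their median width was 467 bp in the MGE list (range 260 to 992 bp), and they overlapped 43 of the 53 telencephalon peaks of this stretch. As background, the assembled sequence of a mouse chromosome begins beside the centromere, whose satellite repeats attract reads that cannot be placed with certainty. The part of repeats in these peaks was not tested. The run holds 11 of the 128 shared intergenic peaks over 600 bp wide. Without it the count was 5040, the median MGE width 341 bp and the share with a neighbour within 10 kb 22.4%.

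**Figure D5:**
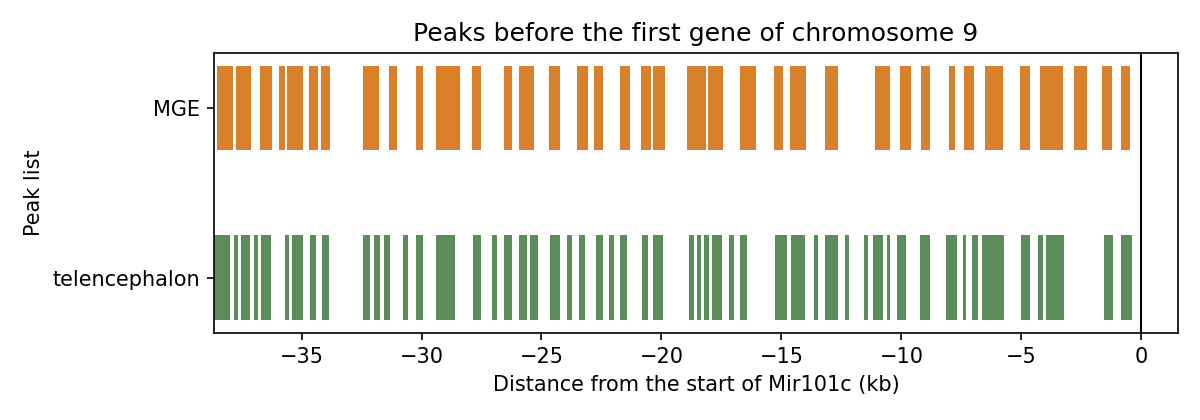
Peaks of the MGE list (upper row) and the telencephalon list (lower row) in the sequence before Mir101c, the first gene of chromosome 9, as bars to scale along the distance from its start (x axis, kb). The MGE list has 37 peaks there and the telencephalon list 53.

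Among the 8 widest MGE peaks of the whole set, 2 belonged to that run, with 992 and 957 bp. The widest, 1348 bp, lay 12352 bp from the pseudogene Gm9637 and matched 2 telencephalon peaks (chr14:19416771-19418118). A peak of 940 bp at chr2:98666403-98667342, 35727 bp from Gm33780, also matched 2. Both had another shared peak nearby, with midpoints 1359 bp apart near Gm9637 and 1741 bp apart near Gm33780. As in the chromosome 9 run, the part of repeats in these peaks was not tested. The remaining wide peaks each had a protein-coding gene as a neighbour, though the nearest gene of 1 was the non-coding Abhd11os. At Slc17a5, which encodes a lysosomal sialic acid transporter, the MGE peak was 1091 bp wide and its telencephalon partner 1067 bp (chr9:78527193-78528283, 8749 bp from the gene). Between the homeobox genes Tlx1 and Lbx1 the widths were 923 and 913 bp (chr19:45220586-45221508, 11637 bp from Lbx1). Between Abhd11os and Stx1a, the syntaxin 1A gene of the synaptic release machinery, the MGE peak measured 861 bp and the telencephalon peak 558 bp. An MGE peak of 912 bp between Ccdc63 and the phosphatase gene Ppp1cc matched 2 telencephalon peaks, 1 of them 333 bp wide. The paired widths were thus within 25 bp of each other at Slc17a5 and near Lbx1.

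Some sites were wide in 1 list alone. The widest telencephalon partner, 1744 bp, belonged to an MGE peak of 410 bp that lay 1239 bp from Ercc1 (chr7:19342624-19343033). The midpoint of this partner itself lay within 1 kb of a gene end, so by its own position it was a gene-end peak. Near Gm39114 an MGE peak of 249 bp had a partner of 1169 bp (chr7:141048341-141048589), the largest ratio among matched pairs at 4.69. The smallest ratio, 0.26, was found between the interferon genes Ifna6 and Ifna5, where the MGE peak measured 725 bp and its partner 192 bp (chr4:88830513-88831237). MGE peaks of 842 bp near Dynap and 667 bp near Efcab10 had partners of 253 and 220 bp. Near Sh2d6 an MGE peak of 336 bp overlapped a telencephalon peak of 1410 bp by 325 bp. That partner, too, had its midpoint within 1 kb of a gene end. Among shared telencephalon peaks whose own midpoint lay between genes, 1 to 100 kb from a gene, the widest measured 1266 bp. Beside Ccl21b, a chemokine gene, MGE peaks of 419 and 452 bp shared one of 1266 bp. In all, the telencephalon peak was over 2 times as wide as the MGE peak in 191 of the 5002 pairs, and the MGE peak was over 2 times as wide in 108.

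Protein-coding genes were the nearest gene of 2731 shared peaks (53.8%, interval 52.4 to 55.2%), long non-coding RNA genes of 1359 and pseudogenes of 710. Of all 47042 genes on chromosomes 1 to 19, 8.88% were the nearest gene of at least 1 shared peak, and 11.0% of the 20665 protein-coding ones (2274 genes) were. Whether the peaks faced the start or the end of the gene is not reported, since a strand was at hand for 79.3% of the 2731 peaks next to a protein-coding gene, below the 80% required for such a check.

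Genes of the developing forebrain had shared peaks in their flanks as follows, counted as the nearest gene, beside the 11.0% of protein-coding genes in general. Of genes of the MGE and interneuron lineage 5 of 24 did (20.8%, interval 7.13 to 42.2%), of lateral and caudal eminence and striatal genes 8 of 25, of dorsal and projection neuron genes 7 of 25 and of progenitor genes 5 of 24. Signalling genes had 5 of 25, migration and guidance genes 10 of 29 (34.5%, 17.9 to 54.3%) and adhesion and synapse genes 8 of 29. Lists of other cell types gave 4 of 13 (30.8%) for blood and microglia and 5 of 15 (33.3%) for vascular and meningeal cells, where the forebrain lists ran up to 34.5%. Genes for cohesin and its partners had 1 of 21 and Hox genes 3 of 39. Imprinted genes, some of which are non-coding, had 2 of 24, beside the 8.88% of all genes. The lists are small, their intervals are wide, and no list was tested against the others. Neither these counts nor those with protein-coding genes alone allow for the length of the gaps beside a gene. That length matters, since 2.65% of gaps of 2 to 5 kb and 27.2% of gaps of 100 to 200 kb held a shared peak. Its part in the differences between lists was not tested.

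Many of these genes have a non-coding gene as neighbour that takes the nearest place. With protein-coding genes alone, 20.4% of all 20665 had a shared peak as nearest gene. The corresponding counts were 13 of 24 for MGE and interneuron genes, 14 of 25 for dorsal genes, 10 of 24 for progenitor genes, 11 of 25 for signalling genes, 12 of 29 for guidance genes and 6 of 15 for vascular genes. Lateral and caudal eminence genes had 14 of 25, adhesion genes 12 of 29, blood genes 5 of 13, Hox genes 6 of 39 and cohesin genes 3 of 21.

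At interneuron genes, Sst, which encodes the neuropeptide somatostatin, had 2 shared peaks 7098 and 7713 bp away (chr16:23898274-23898607 and chr16:23898894-23899216). They were 334 and 323 bp wide and overlapped 1 telencephalon peak of 927 bp. Dlx2, Dlx5 and Sox6 had 1 each, with peaks of 254, 307 and 312 bp at 1278, 3061 and 17329 bp.

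Among genes of the lateral and caudal eminences, Bcl11b, a regulator of striatal and deep-layer neurons, had peaks on both sides. A peak of 277 bp lay 4816 bp from it (chr12:107905449-107905725) and one of 431 bp lay 37555 bp away (chr12:108041485-108041915). Both had narrower partners, of 241 and 307 bp. Sp8, a zinc finger factor of the dorsal part of the lateral eminence, had one of 420 bp at 2773 bp (chr12:118855142-118855561, partner 266 bp). Its paralogue Sp9 had one of 332 bp at 2884 bp.

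Among dorsal genes, Dmrta2, a transcription factor needed for the cortical hem and dorsal cortex, had the most. It had 4 shared peaks as nearest gene, 36765, 38761, 45178 and 67388 bp away, all on one side. They measured 398, 244, 348 and 339 bp, with telencephalon partners of 547, 334, 555 and 808 bp, so the telencephalon peak was the wider in each pair. Neurog2, a proneural factor of cortical progenitors, had a peak of 576 bp at 4308 bp (chr3:127639657-127640232, partner 380 bp). Tbr1 had one of 275 bp at 1020 bp and Lhx2 one of 379 bp at 6417 bp.

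Among progenitor and signalling genes, Rax, an eye and hypothalamus factor, had peaks at 9822 and 12545 bp that were 307 and 244 bp wide. Slc1a3, a glutamate transporter of radial glia, had one of 458 bp at 6796 bp, with a partner of 495 bp whose midpoint lay 32 bp away. Spry2, an inhibitor of FGF signalling, had 3 shared peaks on one side, at 2203, 6253 and 28265 bp. In that order they were 442, 254 and 244 bp wide, with partners of 480, 160 and 253 bp. Gli2, a transcription factor of hedgehog signalling, had 1 at 29492 bp on one side and 2 on the other, at 65009 and 74380 bp, with MGE widths of 321 to 337 bp. Shh itself had one of 379 bp at 5495 bp (chr5:28451156-28451534).

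Among guidance genes, Nrp2, a semaphorin co-receptor, had peaks of 306 and 309 bp at 2042 and 6125 bp, on the same side of the gene. Their partners were 365 and 273 bp wide. Ephb1, a receptor for ephrins, had peaks at 14666 and 49117 bp, both at the minimum of 244 bp, with partners of 213 and 467 bp. Wide peaks lay near Epha3 (741 bp at 8411 bp) and near Nrp1, a receptor for semaphorins and VEGF (636 bp at 46201 bp). Their telencephalon partners measured 303 and 561 bp. Among adhesion genes, Cntnap2, a neurexin family member, had 3, at 13243, 33557 and 57459 bp, with 1 of them on the opposite side of this long gene from the others. Cdh6, a type II cadherin, had one of 639 bp at 4626 bp, with a partner of 290 bp.

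With all genes counted, the only cohesin or partner gene that was the nearest gene of a shared peak was Smc3, a core cohesin subunit. Its peak of 302 bp lay at 3126 bp (chr19:53648807-53649108, partner 340 bp). With protein-coding genes alone, Smc3 and Wapl had 2 each and Yy1 had 1. Of the imprinted genes, Dlk1 had 3 shared peaks on one side, 14533, 51111 and 58446 bp away and 430, 337 and 331 bp wide, with partners of 489, 285 and 352 bp. H19, whose upstream imprint control region is known to bind CTCF on the maternal allele, had a peak of 255 bp at 3789 bp, with a telencephalon partner of 1053 bp (chr7:142581808-142582062). Among Hox genes, Hoxa9 had one of 470 bp at 1251 bp and Hoxc8 one of 433 bp at 2941 bp. Among genes of other cell types, Kdr, the VEGF receptor of endothelium, had 3 at 61581, 69983 and 79517 bp, and Foxc1, a factor of meninges and mural cells, had 2 at 5241 and 13999 bp. Trem2, a microglial receptor gene, had one of 455 bp at 9175 bp.

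Of the 20665 protein-coding genes, 1904 were the nearest gene of 1 shared peak, 296 of 2, 64 of 3 and 10 of 4 or more. These 10 were named after their values were seen. Ptma, the prothymosin alpha gene, had most, with 6 shared peaks between 1044 and 25327 bp, 4 below the gene and 2 above it in coordinates. Their widths were 308 to 414 bp, with telencephalon partners of 281 to 651 bp. Lmx1a, a LIM homeobox factor of the roof plate and cortical hem, had 5, between 18242 and 93366 bp. The others, with 4 each, were Dmrta2, Enpp1, Igsf11, Mc3r, Scarb1, Rhbdd2, Fbln2 and Cgnl1. At Cgnl1, a cell junction gene, all 4 lay on one side within 10128 bp of it, and at Fbln2, which encodes the matrix protein fibulin-2, within 14248 bp.

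Chromosomes differed in how many shared peaks their intergenic sequence held. Chromosome 11 had the highest density, 8.54 per Mb of sequence 1 to 100 kb from a gene (interval 7.69 to 9.46), and chromosome 3 the lowest, 3.73 per Mb (3.30 to 4.20). The same chromosomes had the highest and lowest share of intergenic MGE peaks with a partner, 70.5% (66.4 to 74.4%) and 42.9% (39.0 to 46.9%). Chromosome 9 had 6.59 per Mb without the run at its start.

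The limits of the rule fell inside a continuous range. The shared peaks just beyond 1 kb lay 1001 bp from Gm32563 (258 bp wide) and from Odf3l1 (388 bp), and those just left out lay 1000 bp from Pfpl (327 bp) and 998 bp from Umodl1 (383 bp). At the upper limit, peaks 99567 bp from Mpdz (342 bp) and 98757 bp from Gm25387 (247 bp) were kept. Peaks 101154 bp from A26c2 (296 bp) and 101362 bp from Gm25564 (338 bp) were left out. Raising the lower limit to 5 kb left 3283 regions, with a median distance of 13571 bp. With protein-coding genes alone there were 5847, and their median distance was 12160 bp.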

How the data were processed

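CTCF ChIP-seq was done on telencephalon and MGE at embryonic day 13.5, with 1 CTCF and 1 input library per tissue. The input libraries are not analysed here. Bowtie2 2.3.2, MACS2 2.1.1.20160309 and build mm10 are named in the submitters' processing notes. How peaks were filtered, at which threshold and against which control is not given in the sources used here. The track names in the file headers end in p001 for telencephalon and p01 for MGE, so thresholds may differ. The telencephalon track name begins with e14, whereas the labels give the same day for both tissues. The authors' deposited lists hold the chromosome, start and end of a peak, with no score, fold or p-value.

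Peaks were placed by midpoint against the 47042 genes on chromosomes 1 to 19 of a RefSeq table (GRCm38.p6, the coordinates of mm10). The table gives no strand, exons or introns, and strands came from the RefSeq promoter table. Calculations used Python 3.11.15, pandas 2.3.3, NumPy 2.4.6 and SciPy 1.17.1. The placement code was checked on simulated data. No test between tissues was made. Regions were named by rule: the widest peaks and partners, the most unequal pairs, the fullest gaps, the closest pairs, the limits of distance, and 2 genes for each of 12 lists. Further listed genes with a peak were added after their values were seen. Some genes that the rule names are not reported here. The members and lists were chosen with earlier results of these data known. The planned motif search needed a genome sequence and was not run. Alternatives changed overlap, distance limits, gene set, peak position, chromosomes and lists. 1 alternative, without the run at the start of chromosome 9, was chosen after seeing the data.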

Additional observations from a re-analysis of the deposited data

Results flagged for a closer look

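Peaks outside chromosomes 1 to 19 were not part of the description above, and they also held shared peaks. On X, 101 of the 397 intergenic MGE peaks 1 to 100 kb from a gene overlapped a telencephalon peak (25.4%, interval 21.2 to 30.0%). The share on chromosomes 1 to 19 was 55.1%. On Y, 7 of 11 were shared (63.6%, 30.8 to 89.1%). On unplaced and mitochondrial sequences, 53 of 85 MGE peaks overlapped a telencephalon peak (62.4%, 51.2 to 72.6%). The difference between X and the other chromosomes was not tested.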

How the results depend on the processing

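The number of shared intergenic peaks near genes, 5075, stayed within 1.5 times of itself under all alternatives but one, a lower limit of 5 kb, which gave 3283. Their share among intergenic MGE peaks, 55.1%, was 52.8% with at least 50% of the MGE peak overlapped and 49.5% with 50% of both. It was 56.3%, 53.2% and 48.9% with lower limits of 500 bp, 2 kb and 5 kb, and 59.6% and 51.7% with upper limits of 50 and 200 kb. Protein-coding genes alone gave 69.0%, MGE peaks wider than 244 bp 72.2%, and a telencephalon list with only as many of its widest peaks as the MGE list 52.9%. The median partner width, 344 bp, became 349 bp with 50% of the MGE peak overlapped, 334 bp with the 5 kb limit and 352 bp with protein-coding genes. The median distance, 7989 bp, became 7159, 9451 and 13571 bp with the lower limits, 7347 bp with the 50 kb limit and 12160 bp with protein-coding genes. With protein-coding genes the densities were 15.6, 13.3, 11.3, 9.25, 6.31 and 3.83 per Mb from the nearest to the farthest class, and 25.9% of gaps held a shared peak. Neighbours within 5 and 20 kb were found for 15.8% and 32.0%. The median MGE width stayed between 340 and 345 bp under all alternatives run for it. The planned motif search was not run. No paired analysis was possible because each tissue had 1 library and no result comes from a test. Unknown depth and thresholds limit every count of unshared peaks, since a missing peak may lie below a list's calling limit.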
